A study of Arabidopsis thaliana with 14 samples.

Results

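The genes described here are 48 genes of the plant cell cycle and of DNA replication, out of 34218 genes in the count tables of Arabidopsis thaliana rosette leaves. They were taken by gene identifier from a fixed list, which was drawn up with earlier results of these data known. They comprise 5 D-type cyclins, 5 cyclin-dependent kinases (CDKs), 4 CDK inhibitors, 4 E2F and DEL transcription factors, 11 replication genes, 7 A-type cyclins, 8 B-type cyclins and 4 genes of mitosis and cytokinesis. All 48 were found in the tables, and 46 had enough reads to be tested. CYCA2;1 and CYCB2;1 did not, with 13 and 15 reads in all untreated libraries together.

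All plants were ft-10, a line with a lesion in the flowering gene FT, 30 days old at injection, grown at 22 °C under light for 16 h and darkness for 8 h a day. Needles made of silk and loaded with 15 mM of the gibberellin GA3 were put into rosette leaves, and leaves were taken after 3 h (n = 3), 24 h (n = 3) and 168 h (n = 2). Silk needles without GA3 were sampled at 24 h (mock, n = 3), and untreated leaves at 0 h (n = 3). Reads of FT were found in every library (3.39 to 56.3 CPM), a total that does not tell apart the stretches of the gene before and after the lesion. No mock was among the samples at 3 h or 168 h, so at those times GA3, the needle and the passing of time cannot be told apart, and by the design text plants at 168 h were also older than at 0 h. RNA came from leaf tissue with all its cell types, so fewer dividing cells and less RNA per cell cannot be told apart. Levels are given as CPM, the reads of a gene scaled by the TMM-adjusted size of its library. Fold changes are fitted log2 values ± SE. Their adjusted p-values are from the quasi-likelihood test of edgeR, adjusted for 20077 genes by the Benjamini-Hochberg method, and 0.05 is the threshold.

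Plant cells enter the cell cycle when D-type cyclins, bound to the kinase CDKA;1, phosphorylate the retinoblastoma protein and release E2F factors. E2F factors switch on the genes that licence and copy DNA, among them the origin recognition complex, CDC6, CDT1, the MCM helicase and the sliding clamp PCNA. Division itself needs B-type and A-type cyclins with the B-type kinases, whose genes are read in a burst around mitosis under MYB3R factors, which bind the mitosis-specific activator (MSA) element. KRP and SIAMESE-type inhibitors block the kinases. A leaf cell that stops dividing can go on copying its DNA without mitosis, a cycle called endoreduplication, which is common in Arabidopsis rosette leaves. In Arabidopsis roots, gibberellin is known to promote division through loss of DELLA proteins, which raise the transcripts of KRP2 and of SIAMESE-type inhibitors.

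Words known from mitotic genes and from replication genes were searched upstream of each gene start, and a few of these stretches are shown because the results turn on the B-type cyclins and the replication genes. The 250 bases upstream of each gene start were read from TAIR10.1 with its own annotation. The core of the MSA element, AACGG, searched on both strands, was present in 6 of 8 B-type cyclins and in 4 of 4 genes of mitosis and cytokinesis, against 20.6% of 27443 protein-coding genes. All 6 of these B-type cyclins held it at least 2 times, as did 3.62% of protein-coding genes. In the 3 stretches that follow, AACGG or its reverse complement CCGTT is in capitals. The stretches lie at chr5:1861704-1861953 on the minus strand for CYCB1;2, chr4:16901346-16901595 on the plus strand for CYCB2;2 and chr3:3627274-3627523 on the minus strand for CYCB1;3. Each reads towards its gene, and none overlaps another annotated gene.
CYCB1;2: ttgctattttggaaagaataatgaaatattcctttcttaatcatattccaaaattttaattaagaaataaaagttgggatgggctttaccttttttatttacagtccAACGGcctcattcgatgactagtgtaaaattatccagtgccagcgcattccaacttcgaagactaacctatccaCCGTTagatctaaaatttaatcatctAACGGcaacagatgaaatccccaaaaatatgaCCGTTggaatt
CYCB2;2: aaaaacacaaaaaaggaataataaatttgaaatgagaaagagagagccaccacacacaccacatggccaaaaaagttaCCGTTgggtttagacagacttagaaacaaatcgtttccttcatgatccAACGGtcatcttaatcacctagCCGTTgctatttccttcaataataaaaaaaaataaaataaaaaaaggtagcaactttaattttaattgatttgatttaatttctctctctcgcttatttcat
CYCB1;3: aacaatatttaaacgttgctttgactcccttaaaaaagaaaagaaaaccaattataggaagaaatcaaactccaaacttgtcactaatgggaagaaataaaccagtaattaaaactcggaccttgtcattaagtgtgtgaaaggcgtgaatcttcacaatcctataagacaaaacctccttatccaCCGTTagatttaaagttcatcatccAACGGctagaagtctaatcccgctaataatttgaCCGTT

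The E2F words TTTCCCGC, TTTCGCGC, TTTGCCGC and TTTGGCGC, searched on both strands, were present in 6 of 11 replication genes (54.5%), against 1.41% of protein-coding genes. No B-type cyclin held one in this window. The E2F word or its reverse complement is in capitals in 3 MCM genes. They lie at chr1:16969964-16970213 on the plus strand for MCM2, chr2:3527501-3527750 on the minus strand for MCM5 and chr5:18010668-18010917 on the minus strand for MCM6. The words did not follow the values gene by gene. CYCB1;4 and CYCB2;4 held no AACGG and were lower at 168 h, while KRP1 held it 6 times and was higher. MCM7 held AACGG and none of these E2F words, and CDC6, CDT1A, PCNA1 and PCNA2 also held none of them. Other forms of the E2F site were not searched and are not marked. A match of letters is a description of the window and does not show that a factor binds there.
MCM2: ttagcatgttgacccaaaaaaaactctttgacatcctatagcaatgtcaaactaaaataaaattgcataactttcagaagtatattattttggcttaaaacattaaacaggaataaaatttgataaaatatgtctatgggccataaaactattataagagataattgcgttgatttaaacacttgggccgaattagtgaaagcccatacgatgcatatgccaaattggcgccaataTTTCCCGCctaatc
MCM5: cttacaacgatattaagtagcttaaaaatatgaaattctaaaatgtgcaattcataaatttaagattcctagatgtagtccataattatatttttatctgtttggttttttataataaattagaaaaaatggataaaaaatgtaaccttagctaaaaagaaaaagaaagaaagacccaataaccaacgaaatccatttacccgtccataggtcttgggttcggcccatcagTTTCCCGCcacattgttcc
MCM6: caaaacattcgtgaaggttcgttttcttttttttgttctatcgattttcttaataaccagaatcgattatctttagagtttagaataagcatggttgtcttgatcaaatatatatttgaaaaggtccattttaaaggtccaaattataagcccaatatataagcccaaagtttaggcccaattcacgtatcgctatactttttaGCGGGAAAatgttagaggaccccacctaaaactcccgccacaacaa

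At 168 h of GA3, transcripts of the cell cycle machinery were lower than at 24 h of GA3 and lower than in untreated leaves for most of its roles. Of the 46 tested genes, 22 (47.8%) were lower at 168 h than at 24 h of GA3 and 0 were higher. Over all 20077 genes tested in this comparison, 13.9% were lower and 10.3% higher. Against untreated leaves 17 (37%) were lower and 1 was higher, where 16.1% of all genes were lower and 15.1% higher. The median log2 fold change of the 46 genes was -1.92 against 24 h of GA3 and -1.51 against untreated leaves, while the median of all genes tested was 0.04 and 0.01. Both libraries of 168 h lay below all libraries of 24 h of GA3 in 37 genes (80.4%, against 25.5% of all genes) and above them in 1 (E2FB, against 29% of all genes). They lay below all untreated libraries in 33 genes (71.7%, against 27.7%) and above them in 1 (KRP1, against 28.6%). In 18 of 46 genes both libraries of 168 h lay below all 12 other libraries, as they did in 12.5% of all genes. The 2 comparisons share the libraries of 168 h and so are not independent.

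**Figure D1:**
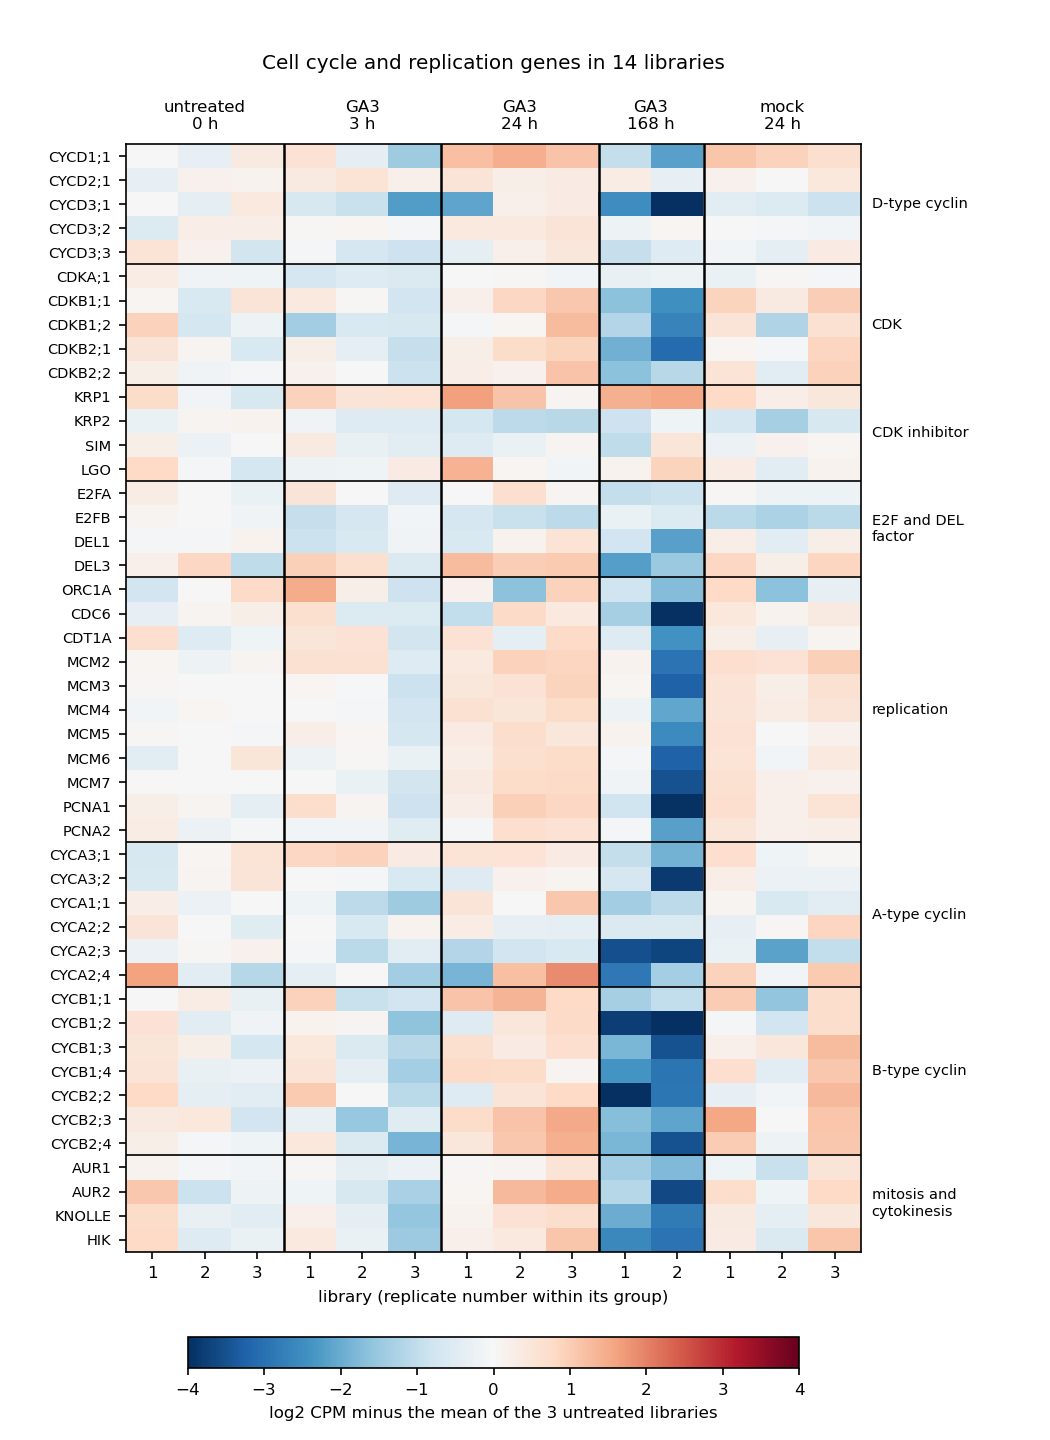
Each row is 1 of the 46 tested genes, in order of role, and each column 1 of 14 libraries. Colour is the log2 CPM (with a prior count of 2) minus the mean of the 3 untreated libraries, and the scale ends at -4 and 4. The columns of 168 h are blue for most rows, and replicate 2 of 168 h is darker than replicate 1 through the replication genes.

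B-type cyclins, which activate the kinases that drive mitosis, had a median of -3.61 against 24 h of GA3 and -2.96 against untreated leaves. CYCB1;2 (AT5G06150) had 0.126 and 0 CPM at 168 h, against 2.0, 3.99 and 5.04 CPM at 24 h of GA3 and 4.38, 2.13 and 2.65 CPM in untreated leaves. With only 3 reads at 168 h, its level was 56.9-fold higher at 24 h of GA3 than at 168 h (95% counting interval 19.2 to 278) and 48.05-fold higher in untreated leaves than at 168 h (16.2 to 235). These intervals cover counting error only. CYCB2;2 (AT4G35620) also had 3 reads at 168 h, where its libraries held 0 and 0.13 CPM, against 1.07, 2.31 and 2.83 CPM at 24 h of GA3 and 2.79, 1.2 and 1.17 CPM in untreated leaves. CYCB2;2 was 32.0-fold higher at 24 h of GA3 than at 168 h (10.7 to 157) and 27.3-fold higher in untreated leaves than at 168 h (9.11 to 134). For both genes the libraries of 168 h lay below every other library.

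CYCB1;4 (AT2G26760) had 0.294 and 0.174 CPM at 168 h, against 3.39, 3.31 and 2.11 CPM at 24 h of GA3 and 2.83, 1.55 and 1.64 CPM in untreated leaves. CYCB1;4 was lower by -3.61 ± 0.71 against 24 h of GA3 (adjusted p = 0.0053) and by -3.07 ± 0.71 against untreated leaves (adjusted p = 0.0077). CYCB1;3, CYCB2;3 and CYCB2;4 fell in the same 2 comparisons, by fitted values of -3.46, -3.35 and -3.96 against 24 h of GA3 and of -2.96, -2.25 and -2.90 against untreated leaves. That made 6 of 7 tested B-type cyclins lower in each comparison. CYCB1;1, which is also induced by DNA damage, did not pass, at -2.95 ± 1.03 against 24 h of GA3 (adjusted p = 0.056) with 5 reads at 168 h. CYCB2;1, too low to be tested, had 0 reads at 168 h and 15 in untreated leaves. Its untreated level was 3.66-fold a floor of 3 reads over the group of 168 h. The lower end of the 95% counting interval of untreated leaves over 168 h was 2.62-fold.

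The genes of mitosis and cytokinesis followed the B-type cyclins. KNOLLE (AT1G08560), the syntaxin that fuses vesicles into the cell plate, had 1.26 and 0.652 CPM at 168 h, against 5.72, 7.82 and 8.64 CPM at 24 h of GA3 and 8.81, 4.22 and 3.82 CPM in untreated leaves. It was 7.68-fold lower at 168 h than at 24 h of GA3 (log2 -2.94 ± 0.59, adjusted p = 0.0057) and 5.84-fold lower than in untreated leaves (-2.55 ± 0.58, adjusted p = 0.0076). HIK (AT1G18370), the HINKEL kinesin that widens the phragmoplast, had 0.42 and 0.304 CPM at 168 h, against 3.49, 3.99 and 6.62 CPM at 24 h of GA3 and 5.22, 2.04 and 2.49 CPM in untreated leaves. HIK was lower by -3.67 ± 0.75 against 24 h of GA3 (adjusted p = 0.0062) and by -3.15 ± 0.74 against untreated leaves (adjusted p = 0.0088). The libraries of 168 h did not overlap any other library for either gene. AUR1, an Aurora kinase of the mitotic spindle, was lower in both comparisons (-1.93 ± 0.42 and -1.67 ± 0.42). AUR2, its close relative, was lower against 24 h of GA3 (-3.42 ± 1.04, adjusted p = 0.033) and not against untreated leaves (adjusted p = 0.078), with 10 reads at 168 h.

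Among the kinases, CDKA;1 (AT3G48750), which acts through the whole cycle, stood apart from the B-type kinases, which act at mitosis. CDKA;1 had 50.4 and 53.7 CPM at 168 h, against 62.6, 63.8 and 57.0 CPM at 24 h of GA3 and 75.8, 55.9 and 55.0 CPM in untreated leaves. Its fitted value was -0.26 against untreated leaves, with a 95% interval of -0.61 to 0.09. CDKB2;1 (AT1G76540) had 0.883 and 0.347 CPM at 168 h, against 4.28, 6.09 and 6.86 CPM at 24 h of GA3 and 5.22, 3.95 and 2.33 CPM in untreated leaves. It was lower by -3.21 ± 0.56 against 24 h of GA3 (adjusted p = 0.0033) and by -2.63 ± 0.55 against untreated leaves (adjusted p = 0.0049). CDKB1;1 and CDKB2;2 were lower in both comparisons too, with fitted values of -3.16 and -2.03 against 24 h of GA3 and of -2.44 and -1.43 against untreated leaves. The call of CDKB2;2 against untreated leaves was marginal (adjusted p = 0.0486). It ended with library totals, no filter, limma-voom, the 2 groups alone, and in each fit with 1 of the 5 libraries left out. CDKB1;2, with 4 reads at 168 h, did not pass in either comparison.

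The A-type cyclins were mixed. CYCA2;3 (AT1G15570), which with CDKB1;1 is known to hold back endoreduplication, had 0.252 and 0.217 CPM at 168 h, against 1.67, 2.26 and 2.5 CPM at 24 h of GA3 and 3.32, 3.99 and 4.4 CPM in untreated leaves. It was 16.2-fold lower at 168 h than in untreated leaves (log2 -4.02 ± 0.60, adjusted p = 0.0011) and 8.92-fold lower than at 24 h of GA3 (-3.16 ± 0.59, adjusted p = 0.0043). Its libraries of 168 h were close to each other and below the 12 others. CYCA3;1, a cyclin of the entry into S phase, was lower in both comparisons (-1.95 ± 0.48 and -1.54 ± 0.48), and CYCA1;1, a mitotic cyclin, was lower against 24 h of GA3 (-1.91 ± 0.49, adjusted p = 0.017). Against untreated leaves CYCA1;1 was at -1.31 ± 0.48 (adjusted p = 0.057). CYCA2;2 and CYCA2;4 did not pass in either comparison.

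Of the genes that act before S phase, some were lower at 168 h and others were near their earlier level. CYCD3;1 (AT4G34160), a D-type cyclin that keeps leaf cells dividing and responds to cytokinin, had 1.01 and 0.0869 CPM at 168 h, against 1.35, 7.03 and 7.58 CPM at 24 h of GA3 and 6.11, 4.57 and 8.06 CPM in untreated leaves. It was lower by -3.26 ± 0.90 against 24 h of GA3 (adjusted p = 0.023) and by -3.49 ± 0.91 against untreated leaves (adjusted p = 0.014). Its annotation overlaps a neighbour on the same strand, so reads shared by both could be lost or assigned to either. CYCD1;1 (AT1G70210) had 3.49 and 1.43 CPM at 168 h, against 15.9, 18.7 and 15.2 CPM at 24 h of GA3 and 6.77, 5.33 and 8.64 CPM in untreated leaves. CYCD1;1 was lower by -2.75 ± 0.54 against 24 h of GA3 (adjusted p = 0.0053) and by -1.49 ± 0.52 against untreated leaves (adjusted p = 0.047). The other D-type cyclins did not pass: against untreated leaves CYCD2;1 was at -0.01 (95% interval -0.49 to 0.48), CYCD3;2 at -0.11 (-0.59 to 0.36) and CYCD3;3 at -0.82 (-1.72 to 0.09).

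E2FA (AT2G36010), an activator of S-phase genes, had 1.98 and 2.13 CPM at 168 h, against 3.91, 6.14 and 4.27 CPM at 24 h of GA3, and was lower by -1.21 ± 0.34 (adjusted p = 0.024). Against untreated leaves E2FA was at -0.95 ± 0.34 and did not pass (adjusted p = 0.05003). E2FB (AT5G22220), the other activator, had 7.95 and 6.6 CPM at 168 h, against 6.09, 5.19 and 4.65 CPM at 24 h of GA3 and 10.5, 9.81 and 8.75 CPM in untreated leaves. Both libraries of 168 h lay above those of 24 h of GA3 and below the untreated ones. The fitted values of E2FB were 0.45 ± 0.24 against 24 h of GA3 (adjusted p = 0.19) and -0.41 ± 0.24 against untreated leaves (adjusted p = 0.22), and neither passed. DEL3, an E2F-like repressor, was lower in both comparisons (-3.78 ± 0.83 and -2.78 ± 0.83), with 4 reads at 168 h.

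The CDK inhibitors were the one role with no member lower at 168 h in either comparison. KRP1 (AT2G23430), which binds cyclin and kinase complexes, had 25.3 and 27.7 CPM at 168 h, against 15.7, 8.7 and 6.05 CPM in untreated leaves. It was 2.61-fold higher at 168 h than in untreated leaves (log2 1.38 ± 0.42, adjusted p = 0.027), and the groups did not overlap. At 24 h of GA3, KRP1 ranged from 10.08 to 29.3 CPM, and 168 h did not differ from it beyond that spread (0.40, 95% interval -0.51 to 1.31). LGO, also called SMR1, which promotes endoreduplication, had 34.0 and 56.9 CPM at 168 h, against 53.8, 29.2 and 18.8 CPM in untreated leaves, and the groups overlapped. SIM and KRP2 overlapped with untreated leaves as well.

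**Figure D2:**
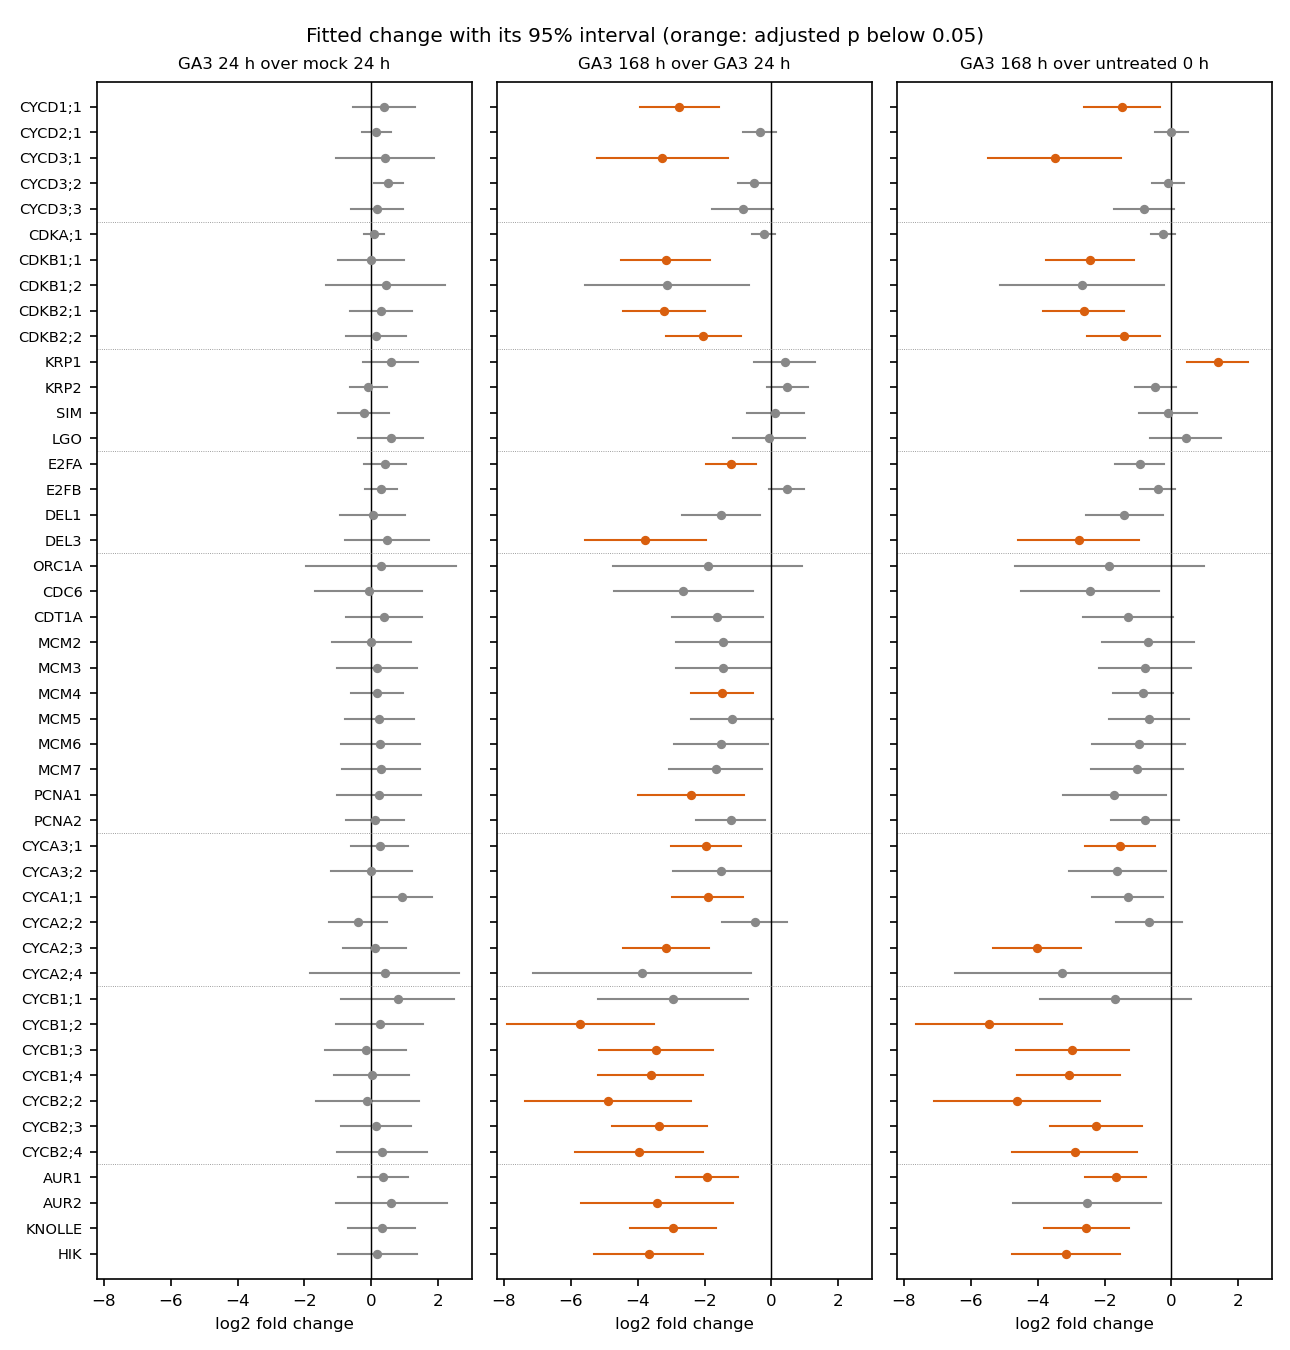
Points are fitted log2 fold changes of the 46 tested genes in order of role, with 95% intervals as lines, in 3 comparisons. Orange marks an adjusted p below 0.05: 0 genes for GA3 over mock at 24 h, 22 for 168 h over 24 h of GA3, and 18 for 168 h over untreated leaves, where KRP1 is the 1 to the right of 0.

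On the replication genes the 2 libraries of 168 h disagreed. MCM3 (AT5G46280), a subunit of the replicative helicase, had 10.8 and 0.999 CPM at 168 h, against 13.9, 15.2 and 19.1 CPM at 24 h of GA3 and 10.6, 10 and 10 CPM in untreated leaves. In replicate 1 it was at the untreated level and in replicate 2 it was far below. MCM7 (AT4G02060), another subunit, had 8.75 and 0.782 CPM at 168 h, against 9.78, 9.81 and 9.6 CPM in untreated leaves. Summed over MCM2 to MCM7, the level was 54.3 CPM in replicate 1 and 7.17 CPM in replicate 2, against 72.4 to 91 CPM at 24 h of GA3 and 53.2 to 56.7 CPM in untreated leaves. PCNA1 (AT1G07370), the sliding clamp, had 3.11 and 0.261 CPM at 168 h, against 6.56, 10.5 and 9.69 CPM at 24 h of GA3. CDC6, which loads the helicase, had 0.967 and 0 CPM at 168 h, against 1.26, 4.46 and 3.46 CPM at 24 h of GA3.

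With this spread between the 2 libraries, 0 of 11 replication genes passed against untreated leaves, where the fitted value of MCM3 was -0.78 with a 95% interval of -2.17 to 0.60. Against 24 h of GA3, 2 passed: MCM4 (-1.47 ± 0.42, adjusted p = 0.026) and PCNA1 (-2.39 ± 0.73, adjusted p = 0.033). Replicate 1 lay below all untreated libraries for 5 of 11 replication genes (34.9% of all genes) and replicate 2 for 11 of 11 (37.1% of all genes). For all 7 tested B-type cyclins and all 4 genes of mitosis and cytokinesis, both replicates lay below all untreated libraries. Both did so in 27.7% of all genes. The median difference of replicate 2 minus replicate 1 was -3.11 on the log2 scale for the replication genes, -0.54 for the B-type cyclins and -0.02 for all genes tested.

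CYCA3;2 (AT1G47210), an S-phase cyclin, split the same way, with 6.94 and 0.695 CPM at 168 h, against 7.3, 12.1 and 16.0 CPM in untreated leaves. The genes of histone H3.1, which is laid down as DNA is copied, also split: the 5 genes summed to 63.7 CPM in replicate 1 and 5.0 CPM in replicate 2, against 85.5 to 106 CPM in untreated leaves. The 2 libraries had similar depth, with 23138725 and 21411700 reads. What sets them apart was not tested.

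**Figure D3:**
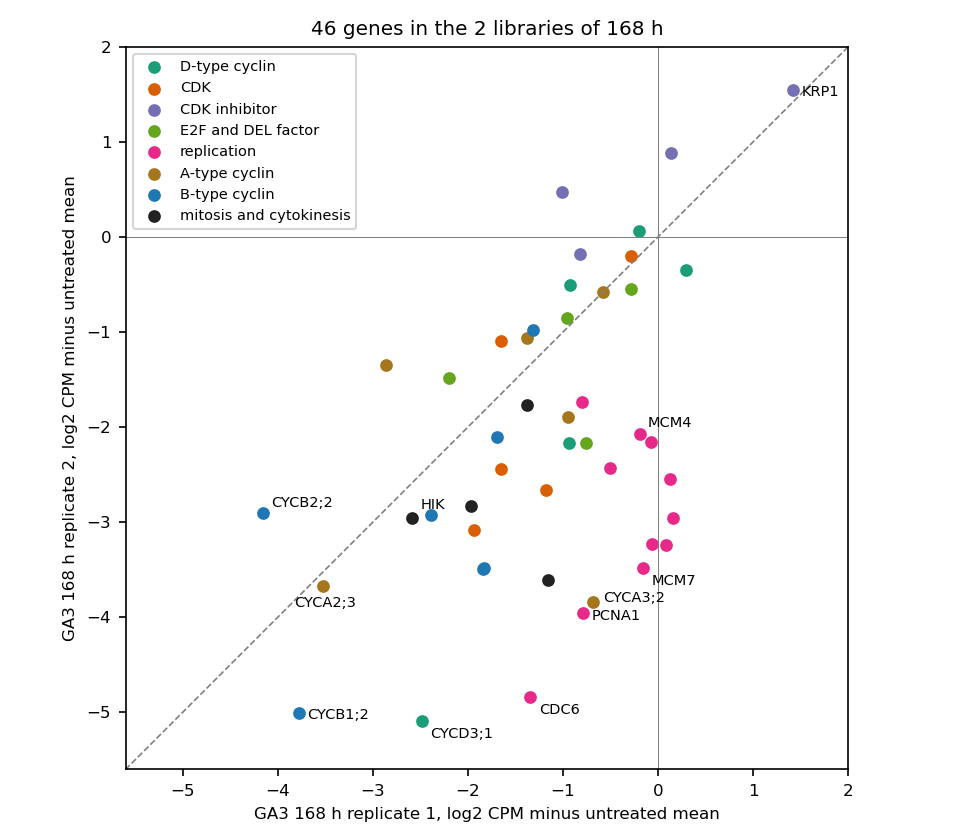
Each point is 1 of the 46 tested genes, placed by its log2 CPM (prior count 2) minus the untreated mean in replicate 1 of 168 h (horizontal) and in replicate 2 (vertical). Points on the dashed line have the same value in both. The replication genes lie from -1.34 to 0.15 on the horizontal axis and from -4.85 to -1.74 on the vertical one, while B-type cyclins and genes of mitosis are below 0 on both.

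Counts of calls at 168 h rested more on replicate 2 than on replicate 1. Without replicate 2 of 168 h most calls ended in both comparisons, and without replicate 1 most were kept. Each of these fits leaves 1 library at 168 h, and the share of all genes called in them is not given here. Of the 22 genes called against 24 h of GA3, 16 were called without replicate 3 of 24 h, 18 without replicate 2 of 24 h, and 14 in a fit of the 2 groups alone, where E2FA, MCM4, PCNA1 and CYCD3;1 were among those not called. Of the 18 called against untreated leaves, 12 were called without replicate 2 of untreated leaves, 10 with limma-voom and 9 in a fit of the 2 groups alone. The call of KRP1 ended without either library of 168 h and without replicate 2 or replicate 3 of untreated leaves. The median fold change stayed negative without either library of 168 h, at -1.14 without replicate 2 and -2.61 without replicate 1 against untreated leaves.

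Marker genes of leaf cells also differed at 168 h, where 16.1% of all genes were lower than in untreated leaves. Of 4 mesophyll genes 3 were lower. The CPM of CA1, a chloroplast carbonic anhydrase, were 276 and 20.0 at 168 h, against 3220, 3760 and 3240 in untreated leaves. RCA overlapped with untreated leaves, with 11800 and 9500 CPM at 168 h, against 10100, 14200 and 12400 CPM. The summed level of the 4 was 14681 to 19960 CPM at 168 h and 29024 to 39203 CPM with mock at 24 h, against 40713 to 50543 CPM in untreated leaves. For 9 genes of the stomatal lineage, whose young cells divide in leaves, the sum was 20.6 CPM in both libraries of 168 h and 15.4 to 24.7 CPM with mock at 24 h, against 27.7 to 38.7 CPM in untreated leaves. The mock libraries overlapped with those of 168 h in this sum. Most of the sum came from FAMA, at 11.5 and 13.6 CPM at 168 h, and SCRM2, at 8.24 and 6.56 CPM. Of the 9 genes, 5 had 0 reads in the 2 libraries of 168 h and 1 had 0 reads in the 3 untreated ones. Those 5 (SPCH, MUTE, EPF2, BASL and POLAR) were also low in untreated leaves, where the highest value was 1.28 CPM for SPCH. Counts this low do not measure how many young cells there were. Of 6 regulators of leaf proliferation 2 were lower at 168 h than in untreated leaves, ANT and GRF3. ANT, which keeps organ cells dividing, was at 0.799 and 0.304 CPM at 168 h, against 7.35, 3.59 and 3.82 CPM in untreated leaves (-3.14 ± 0.88, adjusted p = 0.020). GRF3 was already low at 24 h, at 0, 0.105 and 0.144 CPM with GA3 and 0.484, 1.02 and 0.405 CPM with mock, against 3.24 to 8.38 CPM in untreated leaves. GRF1 had 4.83 and 5.3 CPM at 168 h, against 3.51 to 4.25 CPM in untreated leaves, and did not pass. The meristem genes WUS and CLV3 and the floral gene LFY had 0 reads in every library. The part of these cell types in the fall of the cell cycle genes was not tested.

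Other cell cycle genes, 65 in number with 64 tested, came to 15 lower and 5 higher at 168 h than at 24 h of GA3 and a median of -0.94, where 13.9% of all genes were lower and 10.3% higher. Against untreated leaves 13 were lower and 5 higher, with a median of -0.58, where 16.1% of all genes were lower and 15.1% higher. Mitotic genes made up 9 of those lower in each comparison, out of 14 listed, among them CYCA1;2, a cyclin of meiosis and mitosis (-4.90 ± 0.89 against untreated leaves), PLE of the phragmoplast midzone (-3.64 ± 0.70), MAD2 of the spindle checkpoint (-2.76 ± 0.61) and MYB3R4, a MYB3R activator. MYB3R4 had 0.673 and 0.652 CPM at 168 h, against 6.64, 3.11 and 2.6 CPM in untreated leaves (-2.63 ± 0.54, adjusted p = 0.0046). The other MYB3R genes listed stayed closer to their untreated levels. MYB3R1 had 15.5 and 13.9 CPM at 168 h, against 15.6, 16 and 17.4 CPM in untreated leaves. MYB3R3 had 10.9 and 12.9 CPM, against 8.54, 8.12 and 10.6 CPM. MYB3R5 had 3.41 and 3.82 CPM, against 3.41, 3.02 and 3.18 CPM. Among other CDK inhibitors, SMR5, known to be induced by oxidative stress and DNA damage, was higher at 168 h, with 5.55 and 5.86 CPM, against 0.177, 0.0888 and 0.318 CPM in untreated leaves (4.86 ± 0.71, adjusted p = 0.0010). SMR3 was higher (2.53 ± 0.81, adjusted p = 0.034) and SMR6 lower (-3.17 ± 0.86, adjusted p = 0.017). CCS52A1, an activator of the anaphase-promoting complex that promotes endoreduplication, was lower, with 6.98 and 7.38 CPM at 168 h against 14.8, 13 and 12.8 CPM in untreated leaves (-0.92 ± 0.16, adjusted p = 0.0021). CCS52A2, a second activator of this kind, had 6.73 and 5.82 CPM at 168 h, against 3.77, 3.46 and 2.45 CPM at 24 h of GA3, and was higher by 0.96 ± 0.32 (adjusted p = 0.046). Against untreated leaves CCS52A2 was at 0.21 (95% interval -0.48 to 0.90). CCS52B, another activator of the anaphase-promoting complex, was lower than in untreated leaves (-2.41).

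**Figure D4:**
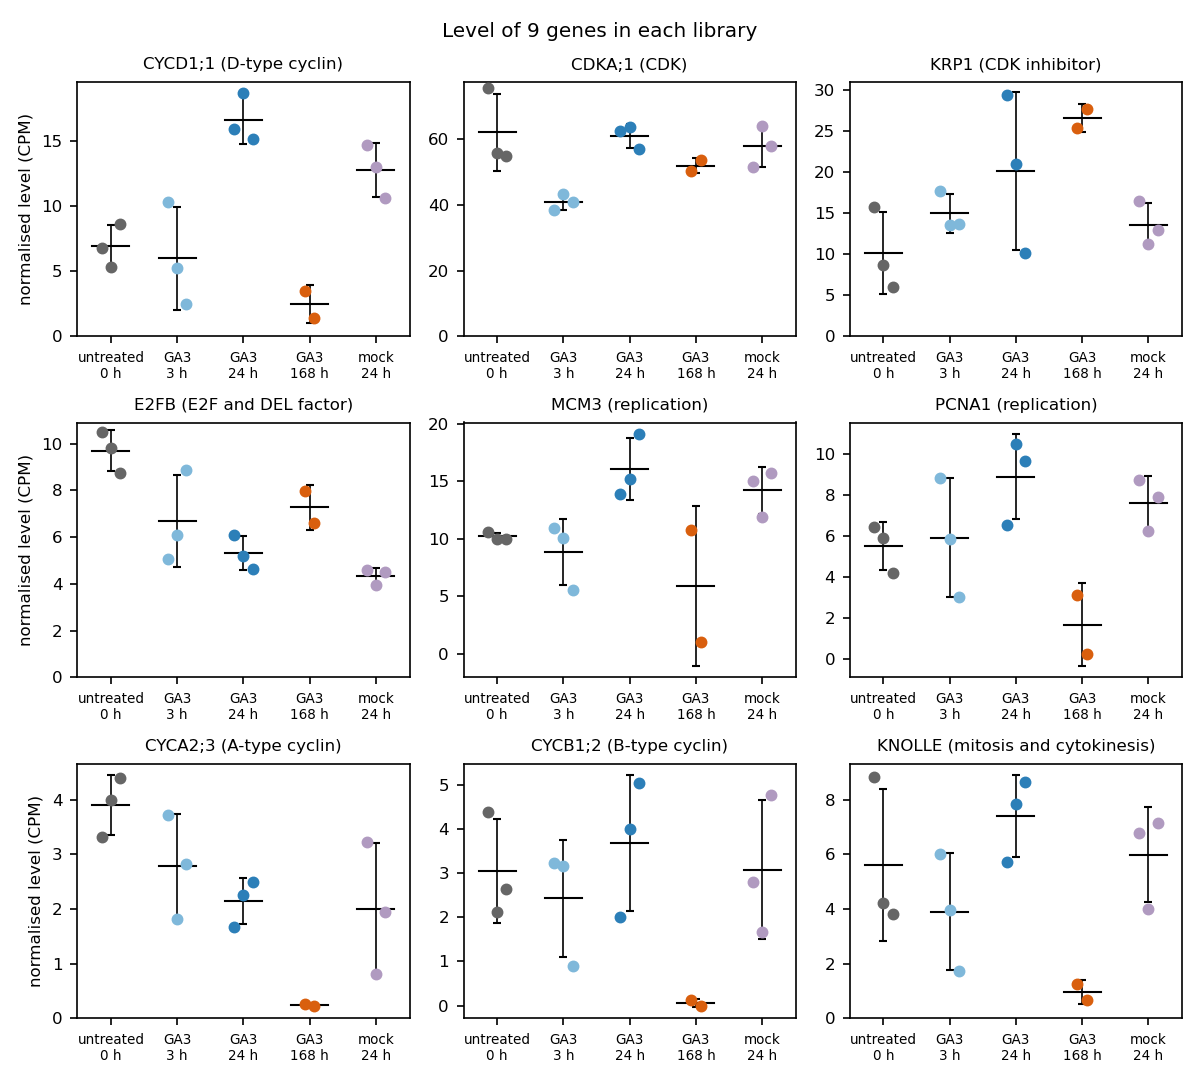
Levels of 9 genes in CPM for each library (points), with the group mean (horizontal line) and SD (bars), in untreated leaves, the 3 GA3 times and mock. At 168 h both points are at the bottom for CYCA2;3, CYCB1;2 and KNOLLE, are apart for MCM3, and are above the untreated points for KRP1.

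GA3 and mock at 24 h differ by their labels in the hormone alone, and between them no cell cycle gene of the list passed the test. Of 46 tested genes 0 were called in either direction by edgeR and by DESeq2, and over all genes edgeR called 0 (0%), while DESeq2 called 19 higher (0.0923%) and 30 lower (0.146%) of 20580. At an unadjusted p below 0.05 there were 2 of 46 genes, both higher, and 6.58% of all genes. They were CYCD3;2 and CYCA1;1. CYCD3;2 (AT5G67260), a partner of CYCD3;1 in leaf growth, had 25.5, 25.7 and 28.1 CPM with GA3, against 19.2, 18.4 and 18.0 CPM with mock. Its groups did not overlap, and the fitted value was 0.51 (95% interval 0.09 to 0.93, adjusted p = 0.75). CYCA1;1 had 2.88, 1.99 and 4.32 CPM with GA3, against 2.15, 1.29 and 1.44 CPM with mock (0.91, interval 0.03 to 1.80, adjusted p = 0.75). The next smallest p-values belonged to KRP1 at 0.58 (interval -0.25 to 1.40), E2FA at 0.41 (-0.23 to 1.04) and E2FB at 0.29 (-0.19 to 0.78), whose intervals all held 0.

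The inhibitors known as DELLA targets in roots did not differ between GA3 and mock beyond their spread. KRP2 (AT3G50630) had 6.05, 4.67 and 4.51 CPM with GA3, against 6.19, 3.87 and 6.21 CPM with mock (-0.10, interval -0.65 to 0.45). SIM had 4.32, 5.14 and 6.62 CPM with GA3, against 5.22, 7.04 and 6.62 CPM with mock (-0.23, interval -1.003 to 0.54). LGO had 81.0, 32.5 and 28.6 CPM with GA3, against 37.9, 22.9 and 34.2 CPM with mock. Replicate 1 of GA3 was the one high library for LGO, and without it the fitted value changed sign from 0.58 to -0.05. Mitotic genes overlapped between the groups too, as for KNOLLE at 5.72, 7.82 and 8.64 CPM with GA3 and 6.78, 3.98 and 7.16 CPM with mock (0.31, interval -0.69 to 1.299). MCM2 to MCM7 summed to 72.4 to 91 CPM with GA3 and 63.2 to 80.9 CPM with mock.

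Small differences leaned one way: 37 of 46 fitted values were above 0 for GA3 over mock (80.4%), as were 49.6% of all genes. The median of the 46 genes was 0.25, and it ranged from 0.06 to 0.33 with 1 of the 6 libraries left out. In 4 of 46 genes (CYCD1;1, CYCD3;2, E2FB and DEL3) all GA3 libraries were above all mock libraries, and 7.02% of all genes did the same. In 0 of 46 were all GA3 libraries below all mock libraries (6.91% of all genes). The 46 genes share the same 6 libraries, so these values are not independent of each other. Replicate 2 was the lowest of the 3 mock libraries in 36 of 46 genes, and for 31% of all genes. Intervals were wide for the low genes, as for CYCB1;2 with 0.25 (interval -1.05 to 1.56), so the test does not show that GA3 and mock act alike.

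At 24 h, E2FB was lower than in untreated leaves with GA3 and with mock, and no gene of the 46 was called higher with either. CYCD1;1 had 15.9, 18.7 and 15.2 CPM with GA3 and 14.7, 13 and 10.6 CPM with mock, against 6.77, 5.33 and 8.64 CPM in untreated leaves, and neither group overlapped with untreated leaves. Its fitted values against untreated leaves were 1.26 ± 0.44 for GA3 (adjusted p = 0.11) and 0.89 ± 0.43 for mock (adjusted p = 0.34). For GA3 at 24 h, 13 of 46 genes lay above all untreated libraries (28.3%, against 14.2% of all genes), among them CYCD1;1, MCM2, MCM3, MCM4, MCM5, MCM7 and PCNA1, and 3 lay below (6.52%, against 13.6%). For mock, 5 lay above (10.9%, against 12.8%) and 4 below (8.7%, against 12%).

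E2FB had 6.09, 5.19 and 4.65 CPM with GA3 at 24 h and 4.57, 3.93 and 4.5 CPM with mock, against 10.5, 9.81 and 8.75 CPM in untreated leaves. It was lower by -0.87 ± 0.22 with GA3 (adjusted p = 0.045) and by -1.16 ± 0.22 with mock (adjusted p = 0.044). In mock against untreated leaves, E2FB was the 1 gene called lower of 46 (0.169% of all genes were lower, 0.608% higher), and the call ended when any 1 of the 6 libraries was left out (adjusted p 0.056 to 0.14). KRP2 was lower with GA3 at 24 h, with 6.05, 4.67 and 4.51 CPM against 8.23, 10.6 and 10.9 CPM in untreated leaves (-0.96 ± 0.25, adjusted p = 0.0499), which made 2 lower of 46, where 2% of all genes were lower and 2.92% higher. With mock, KRP2 was at -0.87 ± 0.25 (adjusted p = 0.12). Without passing, CYCA2;3 was at -0.97 ± 0.43, CYCB2;3 at 0.97 ± 0.49 and CDKB1;1 at 0.74 ± 0.46 with mock against untreated leaves. With GA3 at 24 h against untreated leaves, KRP1 was at 0.99 ± 0.38, CYCB2;3 at 1.10 ± 0.49 and CYCD3;2 at 0.40 ± 0.19, and none of these passed. Neither call with GA3 held in 5 of the 6 fits with 1 library left out, and that of KRP2 alone held without replicate 1 of untreated leaves, with adjusted p of up to 0.17 over the 6 fits.

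At 3 h of GA3, CDKA;1 was the 1 gene called of 46, and it was lower. It had 38.6, 43.3 and 40.9 CPM at 3 h, against 75.8, 55.9 and 55.0 CPM in untreated leaves (1.52-fold lower, log2 -0.60 ± 0.14, adjusted p = 0.017). Of all genes, 5.64% were lower and 8.55% higher. The groups did not overlap, and the call held when each of the 6 libraries was left out. It ended when library totals replaced TMM scaling (adjusted p = 0.073) and in a fit of these 2 groups alone (adjusted p = 0.074). All libraries of 3 h lay below all untreated ones in 4 of 46 genes (8.7%, against 15% of all genes) and above them in 1 (2.17%, against 17.9%). The next smallest p-values belonged to E2FB (-0.54 ± 0.22), CYCA1;1 (-0.84 ± 0.41), CYCD2;1 (0.36 ± 0.20), CYCD3;1 (-1.17 ± 0.68) and CYCA3;1 (0.66 ± 0.39), with adjusted p of 0.12 to 0.29. Outside the 48 genes, 2 of the 64 other cell cycle genes tested were higher at 3 h and 1 was lower, with a median of -0.04. The lower one was KRP4, another inhibitor of the KRP family. KRP4 had 10.5, 8.98 and 13.6 CPM at 3 h, against 15.8, 27.3 and 27.7 CPM in untreated leaves (-1.10 ± 0.24, adjusted p = 0.012). The other CDK inhibitors outside the 48 genes differed in direction at 3 h. SMR5 had 1.01, 1.12 and 1.23 CPM, against 0.177, 0.0888 and 0.318 CPM in untreated leaves. SMR6 had 2.65, 6.15 and 3.7 CPM, against 0.62, 1.64 and 1.33 CPM. KRP6 and SMR8 lay below all untreated libraries, KRP6 at 9.26, 6.29 and 8.46 CPM against 26.6, 12.2 and 10.4 CPM. The 46 genes had a median of -0.23, and 36 of 46 fitted values were below 0 (78.3%, against 50% of all genes). With 1 of the 6 libraries left out, this median ranged from -0.43 to -0.03. Replicate 3 of 3 h was the lowest of its group in 33 of 46 genes, against 40.1% of all genes. That library also had the most multimapping reads of the 14 (4.65%) and the smallest share of reads in genes (88.8%). The part of this library in the lower values at 3 h was not tested.

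Between 3 h and 24 h of GA3, 3 of 46 genes were higher at 24 h and 0 lower, where 5.68% of all genes were higher and 5.72% lower. CDKA;1 had 62.6, 63.8 and 57.0 CPM at 24 h, against 38.6, 43.3 and 40.9 CPM at 3 h (0.58 ± 0.14, adjusted p = 0.026). CYCB2;3 had 2.46, 3.25 and 4.22 CPM at 24 h, against 1.15, 0.439 and 0.986 CPM at 3 h (3.83-fold higher, log2 1.94 ± 0.51, adjusted p = 0.031). CYCA1;1 had 2.88, 1.99 and 4.32 CPM at 24 h, against 1.76, 0.927 and 0.698 CPM at 3 h (1.44 ± 0.41, adjusted p = 0.044). In 15 of 46 genes (32.6%) all libraries of 24 h lay above all libraries of 3 h, as they did in 14.7% of all genes, among them CYCD1;1 (1.47 ± 0.44, adjusted p = 0.051), MCM3, MCM4, MCM5, MCM6, MCM7 and PCNA2. In KRP2 alone all libraries of 24 h lay below those of 3 h, as they did in 17.2% of all genes. MCM4 was at 0.86 ± 0.36 and CYCB2;4 at 1.499 ± 0.64, and neither passed. The 3 calls were not firm: 0 were left without replicate 2 or replicate 3 of 3 h or without replicate 2 of 24 h, and 1 without replicate 1 or replicate 3 of 24 h, with library totals and in a fit of the 2 groups alone. The 3 called genes all came from libraries taken at different hours after the needle, and the hour of day at sampling was not among the labels used here.

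The genes also differed in how much they were read at all. Per kilobase of exon, mean levels in untreated leaves ran from 0.106 CPM per kilobase for CYCA2;1 to 41.5 for CDKA;1, with LGO next at 41.0. Most mitotic genes were at a few CPM or less in every group, and the 8 B-type cyclins had 0 to 15 reads each at 168 h, which limits how finely their fall can be measured. ORC1A, a subunit of the origin recognition complex, had 116 reads on its own strand and 2218 on the opposite one (95%) over all libraries, where other genes are annotated, and DEL1 had 434 and 403, so their values could hold stray reads of those neighbours.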

How the data were processed

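Per the submitters' processing notes, reads were aligned with STAR 2.7.7a to TAIR10, and the authors deposited raw read counts per gene. No source used here names the annotation. Of the deposited count columns the one for the gene's own strand was taken, chosen from the counts, as 4.86% to 5.51% of reads fell on the other strand. Libraries held 20448913 to 26537437 reads, 88.8% to 95.8% in genes. Replicates are biological ones in the submitters' design text, which does not say how many plants each held, so p-values measure the spread between these samples.

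In R 4.3.3, edgeR 4.0.16 fitted all 14 libraries together (TMM factors, filterByExpr by group, 1 coefficient per group), and the quasi-likelihood F test was run on 20077 genes in 7 comparisons with Benjamini-Hochberg adjustment. SE was derived from the log2 fold change and F. A floor of 3 reads stands for a group with 0. The fit was tested on simulated data. TAIR10.1 gave coordinates and names (32548 of 34218 genes matched) and the upstream sequences. Alternatives were RLE factors, library totals, DESeq2 1.42.0, limma-voom 3.58.1, no filter, 1 CPM in 3 libraries, the 2 groups alone, a replicate block, strand ignored, and each library left out. Named genes were all called genes and at least the 6 with the smallest p in each comparison, and others are given to describe a role. The 48 genes and 12 further lists were chosen with earlier results of these data known.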

Additional observations from a re-analysis of the deposited data

Results flagged for a closer look

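Reads on the opposite strand of MCM7 stood out at 168 h of GA3, in a column the comparisons do not use, at a mean of 1.58 CPM. The libraries held 1.89 and 1.26 CPM at 168 h, with 45 and 29 reads, against 0.398, 0.311 and 0.265 CPM in untreated leaves. Single libraries of mock at 24 h reached 1.08 CPM and of GA3 at 3 h 0.616 CPM. The gene AT4G02050, annotated on the other strand and overlapping MCM7, had 62.7 and 57.7 CPM on its own strand at 168 h, against 26.2, 18.1 and 19.4 CPM in untreated leaves. Its part in the opposite-strand reads was not tested. On its own strand MCM7 had 8.75 and 0.782 CPM at 168 h, and no call on MCM7 was made in the report.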

How the results depend on the processing

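For the 46 genes, counts of calls and median fold changes were recomputed under each alternative, and the cause of a change was not tested. Shares over all genes are not given beside these counts. In GA3 at 24 h against mock, counts were 0 in both directions under every alternative, and LGO, which was not called, ranged from -0.05075 (without GA3 replicate 1) to 0.8407 (log2) with 1 library left out. In mock against untreated leaves, the 1 lower gene became 0 with library totals, limma-voom and the 2 groups alone, 2 with DESeq2, and 0 in each fit with 1 library left out. In GA3 at 3 h against untreated leaves, the 1 lower gene became 0 with library totals and the 2 groups alone, and 1 to 2 with 1 library left out. In GA3 at 24 h against untreated leaves, the 2 lower genes became 1 with RLE factors and limma-voom and 0 with library totals, no filter and the 2 groups alone. DESeq2 called 1 gene higher there, and with 1 library left out there were 0 to 1 lower and 0 to 1 higher genes. In GA3 at 168 h against untreated leaves, the 17 lower genes became 26 with DESeq2 and 9 with the 2 groups alone, which left 0 higher. With 1 library left out there were 3 to 27 lower and 0 to 1 higher genes, and a median of -2.611 to -1.143. In GA3 at 24 h against 3 h, the 3 higher genes became 1 with library totals and the 2 groups alone, and 0 to 3 with 1 library left out. In GA3 at 168 h against 24 h, there were 3 to 28 lower genes with 1 library left out and a median of -3.21 to -1.563. Library totals in place of TMM moved the median log2 fold change of all genes by 0.24 in GA3 at 168 h against 24 h, 0.196 in GA3 at 168 h against untreated leaves, -0.161 in GA3 at 24 h against 3 h and 0.115 in GA3 at 3 h against untreated leaves.

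In no comparison of 3 pairs did the deviations of same-numbered replicates correlate above 0.1 in every pair, although all 3 correlations were above 0 in those of GA3 at 24 h against mock, untreated leaves and 3 h (0.0127 to 0.309), so the numbers were not taken as pairs. With the replicate number as a block, the lower genes became 0 in mock against untreated leaves and 0 in GA3 at 24 h against untreated leaves, CDKB2;2 was no longer called in GA3 at 168 h against untreated leaves, and the other counts stayed within 1.5 times. Fits with 1 library of 168 h assume that it varies like the other groups. Reads limit the mitotic genes at 168 h.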
